A study of Mus musculus with 10 samples.

Results

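The 35 genes described here encode the core machinery of macroautophagy and its cargo receptors. They were taken by gene name from the count table, where each name had 1 row, and make up 35 of 56748 rows. All 35 passed the filter on low counts that left 14183 genes for testing. In macroautophagy a cell wraps cytoplasm in a double membrane, the autophagosome, and delivers it to lysosomes. The ULK1 kinase complex starts the process, a class III phosphatidylinositol 3-kinase complex marks the growing membrane, ATG2 and ATG9 proteins supply lipid, and a set of conjugating enzymes attaches ATG8-family proteins (the LC3 and GABARAP proteins) to it. Cargo receptors such as p62, the product of Sqstm1, bind both ATG8 proteins and the material to be degraded. In liver the pathway is known for its response to fasting and for turning over mitochondria, protein aggregates and lipid droplets.

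The study measured poly-A selected RNA from cultured primary hepatocytes of wild-type mice after overnight exposure to conditioned medium of adipocytes. In the Mttp_KO_CM group (5 libraries) the medium came from Mttp KO adipocytes, grown from A-Mttp-/- mice. The product of Mttp, microsomal triglyceride transfer protein, is known for lipidating lipoproteins as they are made. In the Mttp_flox_CM group (5 libraries) the medium came from adipocytes of Mttp f/f mice. For both groups stromal vascular cells of inguinal fat from male mice were turned into adipocytes in culture with a cocktail of IBMX, insulin, dexamethasone, indomethacin and rosiglitazone, and were starved overnight before the medium was collected. These mice, for which the labels give n = 3, ate an obesogenic diet for 6 months. The sources used here name neither the Cre driver nor the strain, age or sex of the hepatocyte donors. Whether the 5 libraries of a group stem from different hepatocyte donors or dishes is not stated, and the p-values below therefore speak for library-to-library spread alone, which may be technical. All values are transcript levels, and no protein, LC3 lipidation or autophagic flux was measured.

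Total counts per library were 14283517 to 17178131 in Mttp_KO_CM and 14199798 to 15950530 in Mttp_flox_CM. In each group 4 libraries carried a replicate number found in the labels, and the last, called the unnumbered library, was placed in its group by the letter of its column. Values per library are given below for replicates 1, 2, 3 and 4 and then the unnumbered library, as CPM, which are counts relative to library size, here scaled by TMM (the trimmed mean of M values). Means are given ± SD over the 5 libraries of each group. Fold changes are Mttp_KO_CM over Mttp_flox_CM on the log2 scale with their standard error (SE), and a Benjamini-Hochberg adjusted p under 0.05 over all 14183 genes in edgeR's quasi-likelihood test counted as a change.

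Autophagy transcripts differed little between the media. The cargo receptors Sqstm1, Optn and Tax1bp1 rose, as did Wipi2, Atg2a, Pik3r4 and Gabarapl2, whereas Ulk1, Ulk2, Wipi1, Uvrag and Ambra1 fell. That is 7 genes higher and 5 lower of 35, or 34.3% called, where 36.4% of all genes tested were called. Taken by direction, 20% of the members were higher, against a background of 18.2%, and 14.3% were lower, against 18.1%. The share called was therefore near the background. Members with a mean of at least 5 CPM numbered 34, and of all genes at that level 42.4% were called.

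The sizes of the changes were small. None of the 35 genes reached 1.5-fold, which 7.47% of all genes tested did with an adjusted p under 0.05, and the largest change among them was that of Sqstm1 at 1.25-fold. The median absolute log2 change was 0.071 over the 35 genes and 0.14 over all genes, and the signed medians were 0.0092 and 0.0012. The median SE was 0.046 over the 35 genes and 0.066 over all genes. Sizes of change were not compared at matched levels, and less precise estimates spread more widely. For 27 of the 35 genes the change was under 1.1-fold in either direction. The ranges of the groups were apart for 7 members (20%), where this held for 25.7% of all genes: Mttp_KO_CM lay above for 5 members, against a background of 13%, and below for 2, against 12.7%. The balance of calls depends on scaling: 50.1% of called genes were higher with TMM and 38.1% with library size alone, and with library size alone 4 members were higher and 7 lower. The calls for Sqstm1, Optn, Wipi2, Atg2a, Ulk1, Ulk2, Wipi1 and Uvrag held under all 20 alternatives tried.

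**Figure D1:**
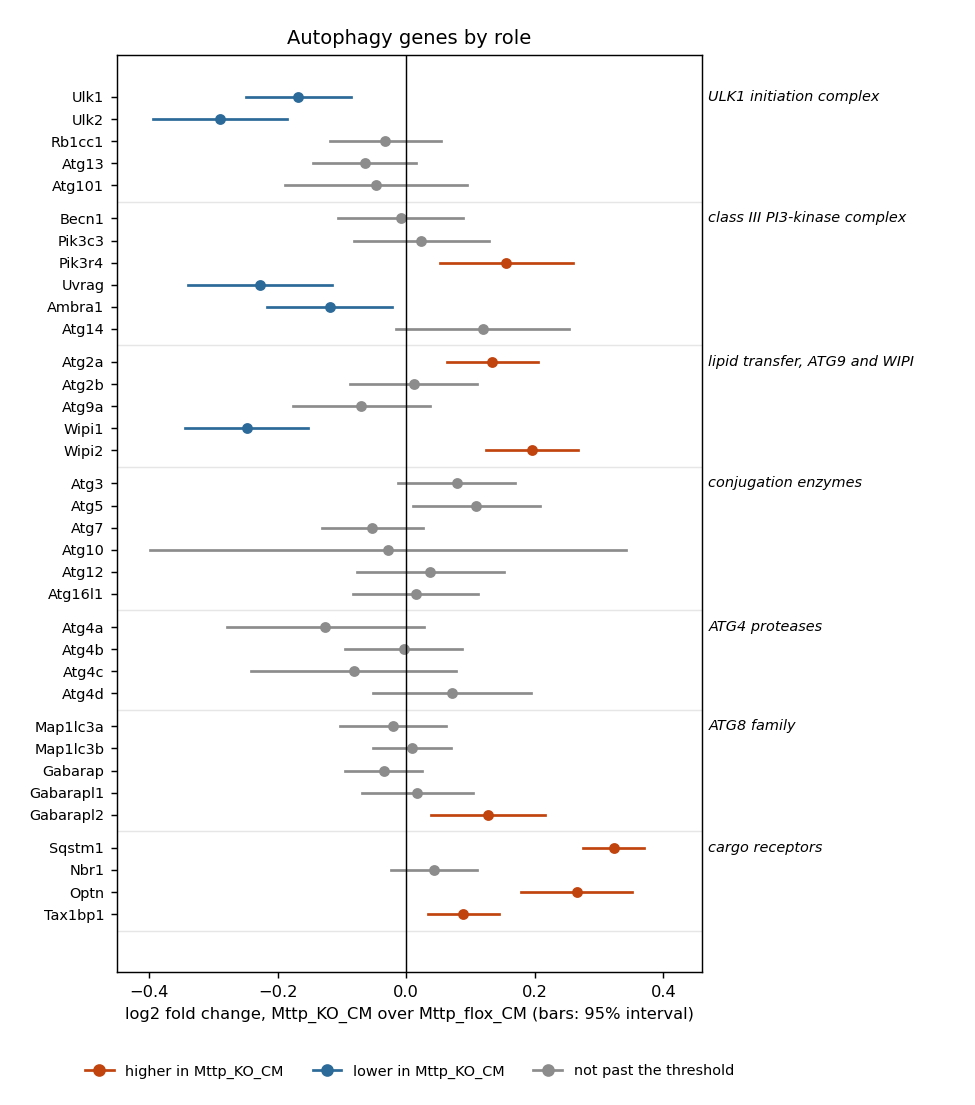
Log2 fold change of each of the 35 autophagy genes (horizontal axis, Mttp_KO_CM over Mttp_flox_CM, points with 95% intervals from the edgeR fit), grouped by role down the page. The 7 genes past the threshold on the right include 3 of 4 cargo receptors, the 5 on the left include Ulk1 and Ulk2, and no conjugation enzyme or ATG4 protease passed.

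Most markers of endothelial cells, macrophages and stellate cells were lower in Mttp_KO_CM. All 10 markers of sinusoidal endothelium fell, with a summed level of 1320.0 to 1398 CPM in Mttp_KO_CM and 2287 to 2453 CPM in Mttp_flox_CM. Of 10 macrophage markers 9 fell and 1, Cd68, rose, with sums of 533 to 599 CPM in Mttp_KO_CM and 778 to 848 CPM in Mttp_flox_CM. Of 9 stellate cell and fibroblast markers tested 7 fell, with sums of 49.99 to 57.4 CPM in Mttp_KO_CM and 91.5 to 101 CPM in Mttp_flox_CM over the 10 listed. Of 5 cholangiocyte markers tested 2 fell, Spp1 and Sox9, with sums of 291 to 357 CPM in Mttp_KO_CM and 532 to 587 CPM in Mttp_flox_CM over 6. Most of these sums was Spp1, with 283 ± 24.9 CPM in Mttp_KO_CM and 513 ± 23.5 CPM in Mttp_flox_CM. Krt19, Krt7 and Epcam did not pass (edgeR adjusted p = 0.261, 0.63 and 0.768). Lymphocyte and neutrophil markers summed to 9.17 to 12.9 CPM in Mttp_KO_CM and 12.5 to 14.99 CPM in Mttp_flox_CM, with Ly6g at 0 counts in all libraries, and adipocyte markers to 120.1 to 137 CPM in Mttp_KO_CM and 123 to 136 CPM in Mttp_flox_CM, with Lep and Cfd at 0. The 2 adipocyte markers tested went opposite ways: Fabp4, which is also expressed in endothelium and macrophages, averaged 108 ± 6.22 CPM in Mttp_KO_CM and 98.3 ± 5.36 CPM in Mttp_flox_CM (log2 0.13, SE 0.043, edgeR adjusted p = 0.0191), and Pparg 20.02 ± 2.27 CPM in Mttp_KO_CM and 33.1 ± 2.84 CPM in Mttp_flox_CM (log2 -0.72, SE 0.071, edgeR adjusted p = 1.07e-08). Of 10 hepatocyte markers 6 fell and 2 rose, and their sums of 39363 to 40362 CPM in Mttp_KO_CM and 45348 to 47103 CPM in Mttp_flox_CM were the highest of all lists. Most of these sums was Alb, with 25097.5 ± 594 CPM in Mttp_KO_CM and 29137.5 ± 507 CPM in Mttp_flox_CM. Asgr1 and Tdo2 rose, and Apob and Serpina1c did not pass (edgeR adjusted p = 0.991 and 0.0687). In such cultures, fewer cells of a type, less RNA per cell and lower expression of single markers cannot be told apart. Markers of the same list differed in size or direction of change. Log2 changes ran from -2.16 to -0.36 for endothelial, -1.06 to 0.13 for macrophage and -0.58 to 0.95 for hepatocyte markers. What set markers of a list apart was not tested. Autophagy genes are known to be expressed in all of these cell types, and the part of the marker shifts in the values below was not tested.

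Cargo receptors link ubiquitinated or otherwise marked cargo to ATG8 proteins. Of the 4, 3 were called higher, where 18.2% of all genes tested were, and one of these calls (Tax1bp1) did not hold under every scaling. Sqstm1 encodes p62, which gathers ubiquitinated proteins and is itself degraded with them (ENSMUSG00000015837, chromosome 11 from 50090193 to 50101654 on the minus strand; all gene coordinates are of GRCm39). Sqstm1 had 1774, 1751, 1768, 1814 and 1862 CPM in Mttp_KO_CM, against 1452, 1447, 1409.9, 1434 and 1429 CPM in Mttp_flox_CM. Every Mttp_KO_CM library lay above every Mttp_flox_CM library, and the lowest of them, replicate 2, stood well clear of the highest Mttp_flox_CM value. The change was 1.25-fold (log2 0.32, SE 0.023, edgeR adjusted p = 3.66e-11). Optn encodes optineurin, a receptor for damaged mitochondria and bacteria (ENSMUSG00000026672, chromosome 2 from 5025453 to 5068862 on the minus strand). Optn had 94.3, 92.8, 85.0, 92.8 and 96.5 CPM in Mttp_KO_CM, against 75.7, 78.7, 73.5, 82.4 and 73.5 CPM in Mttp_flox_CM. The groups did not overlap, with Mttp_KO_CM replicate 3 the lowest of its group and Mttp_flox_CM replicate 4 the highest of its own (1.202-fold, log2 0.27, SE 0.042, edgeR adjusted p = 1.65e-05).

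Tax1bp1 encodes a receptor that also works in aggregate clearance (ENSMUSG00000004535, chromosome 6 from 52690714 to 52743765 on the plus strand). Tax1bp1 had 285, 289.5, 294, 285 and 278 CPM in Mttp_KO_CM, against 267, 263, 265, 276 and 276 CPM in Mttp_flox_CM. The groups did not overlap, but the gap was narrow (1.06-fold, log2 0.089, SE 0.027, edgeR adjusted p = 0.0108), and the call was lost with library size alone (log2 0.049, adjusted p = 0.163). Nbr1, a receptor related to p62 that takes part in the turnover of aggregates and peroxisomes, had 269, 259, 254, 286 and 280.4 CPM in Mttp_KO_CM, against 256, 255, 264, 262 and 272 CPM in Mttp_flox_CM. These ranges overlapped, and the interval of the difference spanned 0 (log2 0.043, SE 0.032, edgeR adjusted p = 0.336, 95% interval -0.024 to 0.11). Per length, Sqstm1 made up 85.2 ± 0.239% of the summed FPKM of the 4 receptors in Mttp_KO_CM and 83.3 ± 0.328% in Mttp_flox_CM (SD, n = 5 each).

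**Figure D2:**
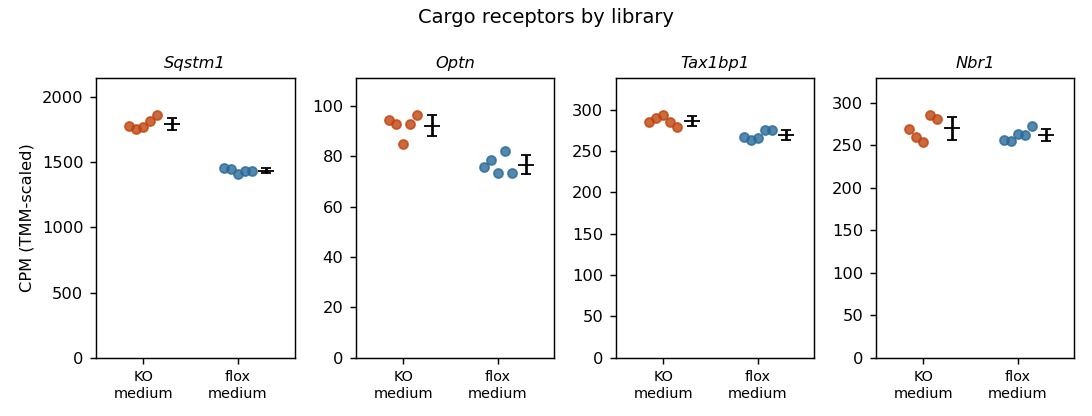
CPM (vertical axis, from 0) of the 4 cargo receptor genes in each library, Mttp_KO_CM left and Mttp_flox_CM right, with the mean ± SD beside the points (n = 5 each). The groups are apart for Sqstm1, Optn and Tax1bp1 and overlap for Nbr1.

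The annotated promoters of the receptors that rose are shown with that of Ulk2, the member that fell most, and that of Atg3, whose level did not pass the test, because the pathway's known regulators bind short motifs in such regions. RefSeq (GRCm38.p6, a different build from the GRCm39 of the counts) gave promoters for 29 of the 35 genes, 33 in all since some genes have more than 1 start. Each runs from 250 bases before the start site to 50 after it. Capitals mark any match, on either strand, to TCACGTGA (the E-box form of the CLEAR motif bound by TFEB), CACGTG (its core, which overlaps it), the DR1 element bound by PPAR with RXR (AGGTCA repeated after 1 base), GTAAACA (a FOXO site), TGACNNNGC (the core of the antioxidant response element bound by NRF2), TATAAAA (the TATA box) or GGGCGG (the GC box).
Sqstm1 promoter, GRCm38.p6 chr11:50210771-50211070, minus strand: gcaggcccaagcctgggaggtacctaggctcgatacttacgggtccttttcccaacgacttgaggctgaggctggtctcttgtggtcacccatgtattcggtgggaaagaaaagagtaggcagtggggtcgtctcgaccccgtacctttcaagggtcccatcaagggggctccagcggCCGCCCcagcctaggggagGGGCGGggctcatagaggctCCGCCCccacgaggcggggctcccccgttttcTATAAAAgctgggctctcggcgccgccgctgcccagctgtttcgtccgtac
Optn promoter, GRCm38.p6 chr2:5064068-5064367, minus strand: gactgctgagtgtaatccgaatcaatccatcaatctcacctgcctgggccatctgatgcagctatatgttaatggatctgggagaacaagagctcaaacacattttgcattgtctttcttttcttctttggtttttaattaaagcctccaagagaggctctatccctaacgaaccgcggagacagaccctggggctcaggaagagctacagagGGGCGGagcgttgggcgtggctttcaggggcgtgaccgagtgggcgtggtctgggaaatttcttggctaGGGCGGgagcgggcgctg
Tax1bp1 promoter, GRCm38.p6 chr6:52713915-52714214, plus strand: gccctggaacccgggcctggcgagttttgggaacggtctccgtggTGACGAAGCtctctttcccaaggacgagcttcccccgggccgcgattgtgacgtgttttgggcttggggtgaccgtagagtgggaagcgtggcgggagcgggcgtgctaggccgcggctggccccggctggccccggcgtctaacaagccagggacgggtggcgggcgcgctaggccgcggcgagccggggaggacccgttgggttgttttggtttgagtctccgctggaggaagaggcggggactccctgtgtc
Ulk2 promoter, GRCm38.p6 chr11:61855043-61855342, minus strand: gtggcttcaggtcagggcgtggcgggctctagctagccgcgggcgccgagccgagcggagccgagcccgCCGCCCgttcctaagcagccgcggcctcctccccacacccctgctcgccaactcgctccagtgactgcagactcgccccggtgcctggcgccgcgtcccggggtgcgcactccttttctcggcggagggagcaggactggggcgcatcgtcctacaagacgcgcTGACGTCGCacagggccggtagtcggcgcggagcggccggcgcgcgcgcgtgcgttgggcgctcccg
Atg3 promoter, GRCm38.p6 chr16:45158579-45158878, plus strand: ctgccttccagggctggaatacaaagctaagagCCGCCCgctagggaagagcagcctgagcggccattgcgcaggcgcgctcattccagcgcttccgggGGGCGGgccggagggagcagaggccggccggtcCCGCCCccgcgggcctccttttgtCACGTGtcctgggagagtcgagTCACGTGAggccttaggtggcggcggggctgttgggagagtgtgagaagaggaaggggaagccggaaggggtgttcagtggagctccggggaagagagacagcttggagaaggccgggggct

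The Sqstm1 window held 3 GC boxes and was the only one of the 33 member promoters with TATAAAA, which began 1 base before the annotated start and was found in 5.48% of all 32851 promoters in the table. The Optn window held 2 GC boxes and none of the other motifs searched. The Tax1bp1 window shown, the downstream of its 2 starts, held 1 match to TGACNNNGC that began 205 bases before the start site, and Ulk2 held 1 that began 17 bases before it, with 1 GC box. The upstream Tax1bp1 window, which is not shown, held 1 GC box and none of the other motifs searched. Matches to TGACNNNGC were present in 12.1% of member promoters and 12.4% of all promoters, and among the members they lay in genes that rose (Tax1bp1), fell (Ulk2) or did not pass the test (Atg13, Map1lc3b). The Atg3 window alone held TCACGTGA (0.974% of all promoters), which began 72 bases before the start, beside a second CACGTG at 94 bases and 3 GC boxes. CACGTG lay in the promoters of Atg3, Atg5, Atg7 and Atg14, or 12.1% against 7.15% of all promoters, and none of these 4 genes passed the test. Neither the DR1 element nor GTAAACA matched a member promoter (0.0396% and 3.65% of all). GC boxes were in 60.6% of member promoters and 35.7% of all. These are matches of letters in the windows, and no binding was measured.

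The ULK1 complex, which starts autophagosome formation when mTORC1 is inactive, had all 5 log2 changes below 0, and the 2 kinase genes passed the test. Of all 14183 genes tested 7063 were below 0. The signs of Rb1cc1 and Atg101 varied over the alternatives tried (log2 -0.072 to 0.018 and -0.087 to 0.0045). Ulk1 (ENSMUSG00000029512, chromosome 5 from 110932354 to 110957963 on the minus strand) had 63.9, 65.2, 62.2, 61.9 and 58.9 CPM in Mttp_KO_CM, against 67.5, 72.5, 69.5, 70.7 and 70.6 CPM in Mttp_flox_CM. Every Mttp_KO_CM library lay below every Mttp_flox_CM library, with the unnumbered one the lowest (log2 -0.17, SE 0.039, edgeR adjusted p = 0.00146). Ulk2, its close relative (ENSMUSG00000004798, chromosome 11 from 61666475 to 61745899 on the minus strand), had 37.8, 39.8, 45.1, 40.3 and 39.6 CPM in Mttp_KO_CM, against 49.7, 45.1, 50.2, 52.3 and 50.7 CPM in Mttp_flox_CM. The ranges met at 1 point only, since Mttp_KO_CM replicate 3 was just above Mttp_flox_CM replicate 2 (0.818-fold, log2 -0.29, SE 0.051, edgeR adjusted p = 6.03e-05).

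The 3 other subunits differed by less. Atg13, the regulatory subunit that mTORC1 phosphorylates, had 67.7, 67.6, 63.4, 67.7 and 68.6 CPM in Mttp_KO_CM, against 66.8, 70.6, 69.4, 72.8 and 70.5 CPM in Mttp_flox_CM. Replicate 3 was the lowest of Mttp_KO_CM and the other 4 lay close together (log2 -0.065, SE 0.039, edgeR adjusted p = 0.213), and the gene passed only with library size alone (log2 -0.10, adjusted p = 0.0399). Rb1cc1, the scaffold also called FIP200, averaged 83.1 ± 1.77 CPM in Mttp_KO_CM and 85.1 ± 5.71 CPM in Mttp_flox_CM (SD, n = 5 each; log2 -0.033, SE 0.042, edgeR adjusted p = 0.59). Atg101, which binds and stabilises ATG13, averaged 20.9 ± 1.29 CPM in Mttp_KO_CM and 21.6 ± 2.12 CPM in Mttp_flox_CM (log2 -0.048, SE 0.069, edgeR adjusted p = 0.638).

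The class III phosphatidylinositol 3-kinase complex makes the lipid mark to which WIPI proteins bind. Of its 6 genes 1 was called higher, Pik3r4, and 2 lower, Uvrag and Ambra1. Becn1, the beclin scaffold, averaged 61.1 ± 3.68 CPM in Mttp_KO_CM and 61.4 ± 3.31 CPM in Mttp_flox_CM (SD, n = 5 each; log2 -0.0086, SE 0.047), and the catalytic subunit Pik3c3, also called VPS34, 29.5 ± 1.33 CPM in Mttp_KO_CM and 29.1 ± 1.30 CPM in Mttp_flox_CM (log2 0.023, SE 0.051). Neither passed (edgeR adjusted p = 0.913 and 0.764). Their intervals ran from -0.11 to 0.089 and from -0.082 to 0.13.

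Uvrag, whose protein replaces ATG14 in a form of the complex that acts on endosomes (ENSMUSG00000035354, chromosome 7 from 98534228 to 98790348 on the minus strand), had 28.8, 29.3, 29.0, 33.1 and 30.4 CPM in Mttp_KO_CM, against 31.4, 37.7, 35.3, 35.3 and 36.5 CPM in Mttp_flox_CM. Mttp_KO_CM replicate 4, the highest of its group, exceeded Mttp_flox_CM replicate 1, the lowest of its own, and no other pair of libraries was out of order (log2 -0.23, SE 0.054, edgeR adjusted p = 0.00171). Ambra1, a beclin-binding regulator that also acts in a ubiquitin ligase, had 63.3, 72.4, 58.5, 66.8 and 67.9 CPM in Mttp_KO_CM, against 72.6, 69.1, 71.7, 72.4 and 71.0 CPM in Mttp_flox_CM. Mttp_KO_CM replicate 2 lay within the Mttp_flox_CM range and the other 4 lay below it (log2 -0.12, SE 0.047, edgeR adjusted p = 0.0485). The Ambra1 call was lost without Mttp_KO_CM replicate 1 (adjusted p = 0.109), without Mttp_KO_CM replicate 3 (adjusted p = 0.171), without Mttp_KO_CM replicate 4 (adjusted p = 0.058), without Mttp_flox_CM replicate 1 (adjusted p = 0.0803), without Mttp_flox_CM replicate 3 (adjusted p = 0.0709), without Mttp_flox_CM replicate 4 (adjusted p = 0.0775) and without the unnumbered Mttp_flox_CM library (adjusted p = 0.061). It was also lost without both unnumbered libraries (adjusted p = 0.0612) and in limma on log2 FPKM with a pseudocount of 1 (adjusted p = 0.0916) or 0.1 (adjusted p = 0.0903).

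Pik3r4, the regulatory kinase-like subunit VPS15, had 61.1, 54.6, 52.4, 58.1 and 58.8 CPM in Mttp_KO_CM, against 48.6, 55.7, 47.6, 53.7 and 50.03 CPM in Mttp_flox_CM. Mttp_KO_CM replicates 2 and 3 lay below Mttp_flox_CM replicate 2 and the other 3 above all of Mttp_flox_CM (log2 0.16, SE 0.050, edgeR adjusted p = 0.0169). The call was lost without Mttp_KO_CM replicate 1 (adjusted p = 0.0564), without Mttp_flox_CM replicate 1 (adjusted p = 0.0544) and without Mttp_flox_CM replicate 3 (adjusted p = 0.0697), without both unnumbered libraries (adjusted p = 0.0862), with library size alone (adjusted p = 0.0748) and in limma on log2 FPKM with a pseudocount of 1 (adjusted p = 0.061) or 0.1 (adjusted p = 0.0595). It was also lost with a replicate block over the numbered libraries (adjusted p = 0.0536). Atg14, which directs the complex to the site of autophagosome formation, averaged 22.2 ± 1.67 CPM in Mttp_KO_CM and 20.4 ± 1.25 CPM in Mttp_flox_CM and did not pass (log2 0.12, SE 0.065, edgeR adjusted p = 0.166).

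Among the genes for lipid supply and for reading the lipid mark, the related WIPI genes went opposite ways. Wipi2, which recruits the ATG16L1 complex to the growing membrane (ENSMUSG00000029578, chromosome 5 from 142613453 to 142656343 on the plus strand), had 156, 164, 158, 156 and 159 CPM in Mttp_KO_CM, against 145, 135, 144, 128 and 140.5 CPM in Mttp_flox_CM. All Mttp_KO_CM libraries lay above all Mttp_flox_CM libraries (log2 0.20, SE 0.035, edgeR adjusted p = 6.93e-05). Wipi1, its relative (ENSMUSG00000041895, chromosome 11 from 109464157 to 109502793 on the minus strand), had 35.5, 35.1, 33.6, 31.5 and 33.5 CPM in Mttp_KO_CM, against 39.8, 41.5, 41.0, 38.0 and 40.7 CPM in Mttp_flox_CM. Here all Mttp_KO_CM libraries lay below all Mttp_flox_CM libraries (log2 -0.25, SE 0.046, edgeR adjusted p = 0.000137).

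Atg2a encodes a lipid transfer protein that feeds the growing membrane and is also found on lipid droplets (ENSMUSG00000024773, chromosome 19 from 6291698 to 6312365 on the plus strand). Atg2a had 149, 152, 147, 154 and 167 CPM in Mttp_KO_CM, against 137, 143, 140.3, 138 and 143 CPM in Mttp_flox_CM. The groups did not overlap, and the unnumbered Mttp_KO_CM library was the highest (log2 0.13, SE 0.034, edgeR adjusted p = 0.00319). Its relative Atg2b averaged 67.9 ± 5.01 CPM in Mttp_KO_CM and 67.3 ± 3.16 CPM in Mttp_flox_CM (log2 0.011, SE 0.048, edgeR adjusted p = 0.883). Atg9a, a lipid scramblase carried on small vesicles, averaged 35.9 ± 1.50 CPM in Mttp_KO_CM and 37.7 ± 2.77 CPM in Mttp_flox_CM (log2 -0.070, SE 0.052, edgeR adjusted p = 0.324). Gskip and Ankzf1 overlap Atg2b and Atg9a on the opposite strand, with 56.9% and 59.7% of their counts over the whole gene. Without strand, reads in bases that such genes share cannot be told apart. Overlap here means that the spans from gene start to gene end cross, so these shares are not of reads in shared bases. Genes that overlap any of the 12 changed members had at most 1.35% of the member's counts.

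**Figure D3:**
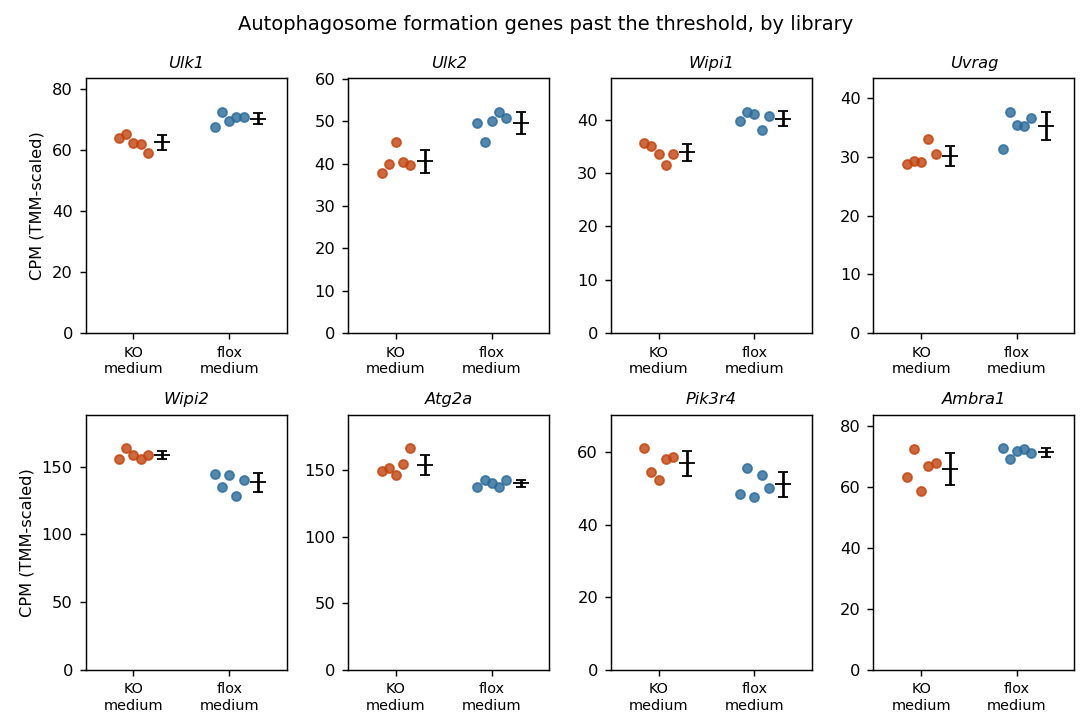
CPM (vertical axis, from 0) in each library for the 8 autophagosome formation genes past the threshold, Mttp_KO_CM left and Mttp_flox_CM right, with mean ± SD (n = 5 each). Ulk1, Wipi1, Wipi2 and Atg2a have groups that do not overlap, and Ulk2, Uvrag, Pik3r4 and Ambra1 overlap in 1 or more libraries.

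The enzymes that attach ATG8 proteins to lipid, and the ATG4 proteases that trim and release them, gave no call among their 10 genes in edgeR, and none in DESeq2. At an unadjusted p under 0.05 only 1, Atg5, would have passed in edgeR. Atg5, which is joined to ATG12 and then directs lipidation, had 43.2, 44.8, 46.3, 45.8 and 47.9 CPM in Mttp_KO_CM, against 40.5, 45.8, 39.1, 42.0 and 44.1 CPM in Mttp_flox_CM. The ranges overlapped, with Mttp_KO_CM replicates 1 and 2 below Mttp_flox_CM replicate 2 (log2 0.11, SE 0.048, edgeR adjusted p = 0.0798), and the gene passed without Mttp_KO_CM replicate 1 (adjusted p = 0.0472) and without Mttp_flox_CM replicate 2 (adjusted p = 0.0345). Atg7, the E1-like enzyme that activates both ATG12 and ATG8 proteins, averaged 88.0 ± 3.97 CPM in Mttp_KO_CM and 91.3 ± 2.54 CPM in Mttp_flox_CM (SD, n = 5 each; log2 -0.053, SE 0.038, 95% interval -0.13 to 0.025). Atg3, the E2-like enzyme for ATG8 proteins, averaged 46.5 ± 2.36 CPM in Mttp_KO_CM and 44.0 ± 1.25 CPM in Mttp_flox_CM (log2 0.078, SE 0.044, 95% interval -0.013 to 0.17).

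Atg12, the ubiquitin-like protein, averaged 40.5 ± 3.85 CPM in Mttp_KO_CM and 39.5 ± 1.599 CPM in Mttp_flox_CM (log2 0.038, SE 0.055), and Atg16l1, which binds the ATG12-ATG5 conjugate and places it on the membrane, 49.3 ± 3.22 CPM in Mttp_KO_CM and 48.7 ± 1.53 CPM in Mttp_flox_CM (log2 0.014, SE 0.047). Atg10, the E2-like enzyme for ATG12, was the member with the fewest reads, 27 to 66 counts per Mttp_KO_CM library and 44 to 51 per Mttp_flox_CM library. Its interval was correspondingly wide (log2 -0.028, SE 0.18, 95% interval -0.40 to 0.34). Of the proteases, Atg4b, the form known to act on most ATG8 proteins, averaged 45.7 ± 2.33 CPM in Mttp_KO_CM and 45.8 ± 1.31 CPM in Mttp_flox_CM (log2 -0.0040, SE 0.044, 95% interval -0.10 to 0.087). Atg4a, Atg4c and Atg4d had log2 changes of -0.13, -0.082 and 0.071 with SE of 0.074, 0.077 and 0.059. Atg4b and Atg4d overlap Thap4 and Kri1 on the opposite strand, which had 29.4% and 46.0% of their counts.

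The ATG8 family, the proteins that coat the autophagosome and hold the receptors, had 1 gene past the threshold, Gabarapl2. Gabarap had 232, 221, 235, 222 and 237 CPM in Mttp_KO_CM, against 236, 228, 232, 237 and 241 CPM in Mttp_flox_CM. The ranges overlapped (log2 -0.035, SE 0.029, edgeR adjusted p = 0.37, 95% interval -0.095 to 0.024), and Gabarap passed, as lower, only with library size alone (log2 -0.075, adjusted p = 0.039). Map1lc3b, which encodes LC3B, the usual marker of autophagosomes, had 210.0, 205, 211, 209 and 213 CPM in Mttp_KO_CM, against 213, 201, 203, 218 and 206 CPM in Mttp_flox_CM. The Mttp_KO_CM values all lay inside the Mttp_flox_CM range (log2 0.0092, SE 0.029, edgeR adjusted p = 0.841, 95% interval -0.051 to 0.070). Zcchc14 overlaps Map1lc3b on the opposite strand with 32.8% of its counts.

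Gabarapl1 had 144, 133, 139, 149 and 158 CPM in Mttp_KO_CM, against 141, 135, 138, 147 and 153 CPM in Mttp_flox_CM. The Mttp_KO_CM values reached both below and above the Mttp_flox_CM range (log2 0.017, SE 0.042, edgeR adjusted p = 0.793, 95% interval -0.069 to 0.10). Map1lc3a, which encodes LC3A, had 71.9, 76.2, 75.1, 76.8 and 79.6 CPM in Mttp_KO_CM, against 78.6, 80.7, 77.8, 72.4 and 75.5 CPM in Mttp_flox_CM. These overlapped as well (log2 -0.020, SE 0.040, edgeR adjusted p = 0.739, 95% interval -0.10 to 0.062). Gabarapl2, also called GATE-16, had 80.5, 75.5, 88.3, 76.8 and 79.8 CPM in Mttp_KO_CM, against 71.0, 75.6, 70.5, 74.8 and 75.4 CPM in Mttp_flox_CM. Mttp_KO_CM replicate 3 was the highest and replicate 2 fell just within the Mttp_flox_CM range (log2 0.13, SE 0.043, edgeR adjusted p = 0.0231). The Gabarapl2 call was lost without Mttp_KO_CM replicate 3 (adjusted p = 0.0917), without Mttp_flox_CM replicate 1 (adjusted p = 0.0645) and without Mttp_flox_CM replicate 3 (adjusted p = 0.0768), and with library size alone (adjusted p = 0.117).

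**Figure D4:**
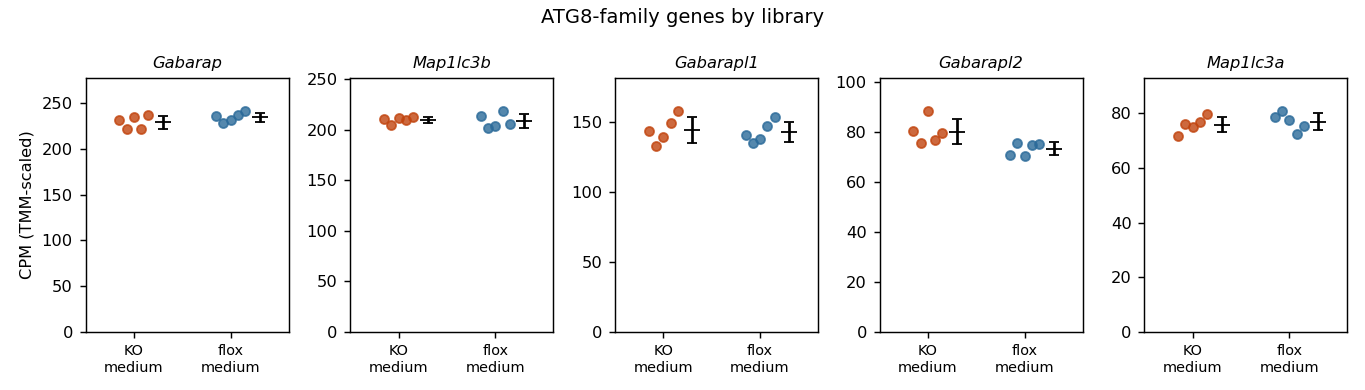
CPM (vertical axis, from 0) of the 5 ATG8-family genes in each library, Mttp_KO_CM left and Mttp_flox_CM right, with mean ± SD (n = 5 each). The groups overlap for all 5 genes, and only Gabarapl2 passed the test.

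Levels can be compared between genes only per length. Here the authors' FPKM values were used, which rest on the deposited gene lengths. The library sizes these FPKM imply were 1.016 to 1.020 times the total count in Mttp_flox_CM and 0.987 to 0.995 times in Mttp_KO_CM. They lie close to the TMM factors, 1.011 to 1.016 in Mttp_flox_CM and 0.982 to 0.993 in Mttp_KO_CM. Sqstm1 stood first with 532 ± 13.3 FPKM in Mttp_KO_CM and 425 ± 4.79 FPKM in Mttp_flox_CM (SD, n = 5 each). Gabarap followed with 124 ± 3.74 FPKM in Mttp_KO_CM and 127 ± 2.79 FPKM in Mttp_flox_CM, then Gabarapl1 with 71.4 ± 4.63 FPKM in Mttp_KO_CM and 70.5 ± 3.73 FPKM in Mttp_flox_CM and Map1lc3a with 63.9 ± 2.40 FPKM in Mttp_KO_CM and 64.8 ± 2.61 FPKM in Mttp_flox_CM. Gabarapl1 and Map1lc3a overlapped in range, while Sqstm1 and Gabarap each stood clear of their neighbours in both groups. Nbr1, Gabarapl2, Tax1bp1, Map1lc3b and Optn came next, between 39.0 and 24.5 FPKM in Mttp_KO_CM and between 37.9 and 20.3 FPKM in Mttp_flox_CM, and Tax1bp1 and Map1lc3b overlapped in range in both groups. The 9 genes above 20 FPKM, averaged over both groups, were thus the 5 ATG8 genes and the 4 receptors.

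The enzymes and scaffolds lay lower, 9 genes from 10 to 20 FPKM, 11 from 5 to 10 and 6 under 5. Atg2a and Atg5 led the scaffolds and enzymes at 19.9 and 19.3 FPKM in Mttp_KO_CM, against 18.1 and 17.9 FPKM in Mttp_flox_CM, and were followed by Atg13, Atg3 and Wipi2. From Rb1cc1 down to Atg4c, with means from 5.69 to 4.71 FPKM over both groups, each gene overlapped in range with the next in both groups. Of the 34 pairs of neighbours in the whole order, 17 overlapped in both groups and 8 in neither. Atg10 was last with 1.69 ± 0.444 FPKM in Mttp_KO_CM and 1.75 ± 0.176 FPKM in Mttp_flox_CM. Within the ATG8 family Gabarap made up 38.5 ± 0.653% of the summed FPKM in Mttp_KO_CM and 39.5 ± 0.334% in Mttp_flox_CM. The sum itself was 321 ± 9.49 FPKM in Mttp_KO_CM and 321 ± 5.58 FPKM in Mttp_flox_CM, and Map1lc3b made up 8.64 ± 0.141% in Mttp_KO_CM and 8.58 ± 0.274% in Mttp_flox_CM. The FPKM of Map1lc3b is set against a deposited length of 7517 bases and that of Gabarap against 1844 bases.

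**Figure D5:**
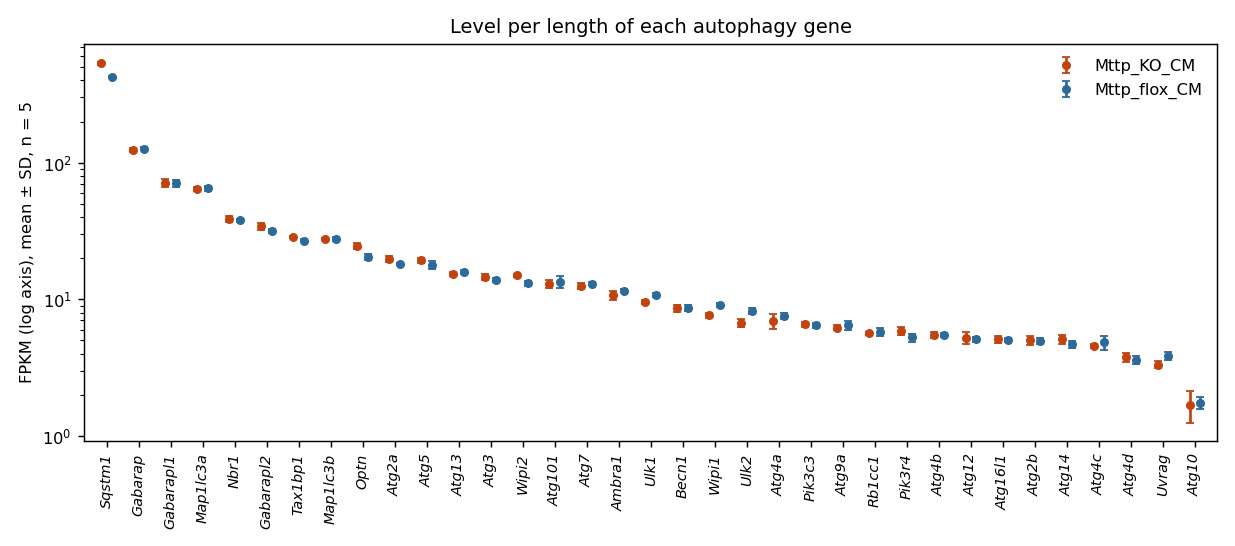
FPKM of the 35 autophagy genes (vertical log axis, mean ± SD, n = 5 each) in order of their mean level over both groups, Mttp_KO_CM left of Mttp_flox_CM for each gene. Sqstm1, the ATG8 genes and the other receptors fill the first 9 places, and Atg10 is lowest.

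Around the core machinery, 97 further genes of the pathway were listed, of which 94 were tested, 19 were higher and 16 lower, where 18.2% and 18.1% of all genes tested were. Their median log2 change was 0.0097. With library size alone 11 were higher and 20 lower, and 20 of the 35 calls held under every alternative run. The counts by list below are to be read against the background of 18.2% higher and 18.1% lower, since most lists are small. Among 15 other genes of autophagosome formation 6 fell and 1 rose. Of these 7, the gene that rose, Vmp1, lost its call under 12 of 20 alternatives, and Bcl2, among those that fell, under 12 of 19. Wdfy3, the large aggregate-binding adaptor also called ALFY, averaged 137 ± 3.55 CPM in Mttp_KO_CM and 167 ± 5.74 CPM in Mttp_flox_CM (log2 -0.29, SE 0.032, edgeR adjusted p = 7.7e-08). Rubcn, which encodes Rubicon, an inhibitor of the UVRAG form of the kinase complex, averaged 53.1 ± 0.878 CPM in Mttp_KO_CM and 63.2 ± 2.65 CPM in Mttp_flox_CM (log2 -0.25, SE 0.040, edgeR adjusted p = 2e-05). The Atg16l1 relative Atg16l2 and the scramblase gene Tmem41b also fell (log2 -0.50, SE 0.10, edgeR adjusted p = 0.00021, and log2 -0.19, SE 0.042, edgeR adjusted p = 0.000815).

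Upstream, 7 of 23 tested genes of the mTORC1 pathway, which holds ULK1 inactive when nutrients are plentiful, rose, where 18.2% of all genes tested did. A further 4 fell, a share near the background of 18.1%. The list holds both activators and inhibitors of the pathway, so these counts give the pathway no direction. Of those that rose, Akt1s1 lost its call under 9 of 20 alternatives, Sesn2 under 5, Mtor under 3 and Lamtor5 under 1, and of those that fell Sesn3 did under 4. Sesn1, a leucine-responsive inhibitor of mTORC1 signalling, averaged 12.7 ± 1.01 CPM in Mttp_KO_CM and 18.2 ± 1.47 CPM in Mttp_flox_CM (log2 -0.51, SE 0.077, edgeR adjusted p = 9.09e-06). The activating GTPases Rraga and Rheb rose (log2 0.21, SE 0.038, edgeR adjusted p = 7.43e-05, and log2 0.19, SE 0.036, edgeR adjusted p = 0.000141), as did Deptor, an mTOR inhibitor (log2 0.19, SE 0.046, edgeR adjusted p = 0.00224). Of 7 genes for subunits of AMPK, the energy sensor that activates ULK1, or for the upstream kinase of AMPK (Stk11), 2 rose. The catalytic subunit genes Prkaa2 and Prkaa1 were the pair that rose (log2 0.18, SE 0.037, edgeR adjusted p = 0.000474, and log2 0.13, SE 0.040, edgeR adjusted p = 0.0129). Prkaa1 lost its call without Mttp_flox_CM replicate 2 (adjusted p = 0.0516), without both unnumbered libraries (adjusted p = 0.0674) and with library size alone (adjusted p = 0.0832). It also lost its call with a replicate block over the numbered libraries (adjusted p = 0.0606).

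Among 11 transcription factors known to act on autophagy genes 2 rose and 1 fell, where 18.2% and 18.1% of all genes tested did, so that neither share exceeded the background. Ppara and Nr1h4, nuclear receptors known in mouse liver to act on autophagy genes in opposite directions, were both higher. Ppara averaged 70.8 ± 6.50 CPM in Mttp_KO_CM and 56.1 ± 3.35 CPM in Mttp_flox_CM (log2 0.33, SE 0.055, edgeR adjusted p = 2.94e-05). Nr1h4 averaged 55.4 ± 2.04 CPM in Mttp_KO_CM and 44.4 ± 2.98 CPM in Mttp_flox_CM (log2 0.32, SE 0.047, edgeR adjusted p = 7.66e-06). Tfeb, a regulator of lysosomal and autophagy genes, was at a low level of 10.8 ± 1.28 CPM in Mttp_KO_CM and 12.8 ± 0.801 CPM in Mttp_flox_CM (log2 -0.24, SE 0.090, edgeR adjusted p = 0.0355). The Tfeb call was lost without Mttp_KO_CM replicate 1 (adjusted p = 0.11), without Mttp_KO_CM replicate 3 (adjusted p = 0.0873), without Mttp_flox_CM replicate 1 (adjusted p = 0.0802), without Mttp_flox_CM replicate 2 (adjusted p = 0.0592) and without Mttp_flox_CM replicate 3 (adjusted p = 0.0698). It was also lost in limma on log2 FPKM with a pseudocount of 0.1 (adjusted p = 0.0533). Foxo1 averaged 92.1 ± 8.58 CPM in Mttp_KO_CM and 96.7 ± 1.88 CPM in Mttp_flox_CM and did not pass (log2 -0.069, SE 0.048, edgeR adjusted p = 0.29).

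Of 9 mitophagy genes tested 3 rose: Phb2, a receptor of the inner mitochondrial membrane (log2 0.21, SE 0.030, edgeR adjusted p = 3.84e-06), Bcl2l13 (log2 0.18, SE 0.042, edgeR adjusted p = 0.00167) and Bnip3 (log2 0.51, SE 0.12, edgeR adjusted p = 0.0018). Bnip3, an outer membrane receptor, averaged 87.2 ± 18.6 CPM in Mttp_KO_CM and 61.3 ± 13.9 CPM in Mttp_flox_CM (SD, n = 5 each), and the groups overlapped. None of 8 ER-phagy receptors tested passed in edgeR or DESeq2. At an unadjusted p under 0.05, 2 would have passed in edgeR, Retreg2 (log2 0.081, SE 0.035, edgeR adjusted p = 0.0737) and Calcoco1 (log2 -0.11, SE 0.050, edgeR adjusted p = 0.0824), and these were called in some alternatives. Calcoco1 passed without Mttp_KO_CM replicate 1 (adjusted p = 0.0382), with upper-quartile factors (adjusted p = 0.0499) and with library size alone (adjusted p = 0.0188). Retreg2 passed in limma on log2 FPKM with a pseudocount of 1 (adjusted p = 0.0483) or 0.1 (adjusted p = 0.0489). Of 6 other receptors and adaptors Tollip and the ferritin receptor Ncoa4 fell (log2 -0.13, SE 0.035, edgeR adjusted p = 0.0053, and log2 -0.10, SE 0.032, edgeR adjusted p = 0.0188) and Bag3 rose (log2 0.11, SE 0.039, edgeR adjusted p = 0.0329). Ncoa4 lost its call without Mttp_KO_CM replicate 1 (adjusted p = 0.0696) and without Mttp_flox_CM replicate 4 (adjusted p = 0.0524), and Bag3 lost its call under 11 of 20 alternatives, among them without Mttp_KO_CM replicate 2 (adjusted p = 0.0658), without Mttp_KO_CM replicate 4 (adjusted p = 0.0598), without the unnumbered Mttp_KO_CM library (adjusted p = 0.0549), without Mttp_flox_CM replicate 1 (adjusted p = 0.0841), without Mttp_flox_CM replicate 4 (adjusted p = 0.112) and without the unnumbered Mttp_flox_CM library (adjusted p = 0.069). Of 15 genes of fusion with lysosomes 3 rose and 3 fell, shares near the background of 18.2% and 18.1%, with Tecpr1, which encodes a tether of autophagosomes to lysosomes, higher (log2 0.24, SE 0.045, edgeR adjusted p = 0.000172) and the SNARE gene Vamp8 and the tethering gene Vps18 lower (log2 -0.13, SE 0.038, edgeR adjusted p = 0.00715, and log2 -0.16, SE 0.046, edgeR adjusted p = 0.00796). Of the other calls in this list, Rab2a (higher) was lost under 15 of 20 alternatives, Epg5 (higher) under 3 and Plekhm1 (lower) under 4.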

How the data were processed

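The authors deposited raw read counts per gene and FPKM values for 10 libraries. The submitters' processing notes name HISAT2 2.0.5, featureCounts 1.5.0-p3 and the build GRCm39. Whether counting used strand is not given in the sources used here. Reads in bases shared by genes on opposite strands were therefore taken as inseparable. FPKM as deposited match the deposited counts over gene length, up to a constant for each library. The whole count table entered edgeR 4.0.16 (R 4.3.3): filterByExpr (minimum count 10, minimum total count 15), TMM scaling and glmQLFTest with group as the only term. Intervals are 95% intervals from that fit. The code of the fit was also run on simulated counts in which every gene had the same dispersion (spread beyond counting noise). That run checks the code and not the calls made here. DESeq2 1.42.0 and limma 3.58.1 (log2 of FPKM plus 1 or plus 0.1) served as alternatives, with other scalings, filters, libraries left out and a replicate block. Gene names and coordinates are those of the deposited tables (GRCm39). The members, the other gene lists and the naming rule (for libraries' values: the 6 largest rises and falls past the threshold, the ATG8 genes, the receptors and members whose call changed; in other lists up to 4 genes with the smallest p) were chosen with earlier results of these data known, and the promoters and motifs after the values were seen. No 2 libraries held identical counts.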

Additional observations from a re-analysis of the deposited data

Results flagged for a closer look

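In 3 of 70 sets of 5 libraries (35 genes in 2 groups) 1 library stood apart from the other 4 by a gap larger than Dixon's 95% limit of 0.71 of the range, where chance gives about 1 in 20. Rb1cc1 reached 94.9 CPM in the unnumbered Mttp_flox_CM library, and the other 4 lay between 80.5 and 84.5 CPM. Atg13 was at 63.4 CPM in Mttp_KO_CM replicate 3, and the other 4 lay between 67.6 and 68.6 CPM. Atg12 was at 42.3 CPM in Mttp_flox_CM replicate 4, and the other 4 lay between 38.1 and 39.1 CPM. Rb1cc1 and Atg12 did not pass the test with or without these libraries, and Atg13 did not pass without Mttp_KO_CM replicate 3 (adjusted p = 0.429).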

How the results depend on the processing

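Under 20 alternatives, 8 of the 12 member calls held throughout and 20 of the 23 members without a call gained none (Atg10 under 19, since the stricter filter removed it); no member changed sign with a call. With library size alone 4 members were higher instead of 7 and 11 other pathway genes instead of 19; under that scaling the median log2 change over all genes was -0.04. Leaving out 1 library at a time gave 5 to 8 members higher and 4 or 5 lower, and without both unnumbered libraries 6 and 4. Same-numbered libraries share only a number: the deviations of such pairs from their group means had correlations over genes of -0.0089 to 0.075, and not every library correlated best with its own number. With a replicate block over the 8 numbered libraries 6 members were higher and 5 lower, and of the 12 calls that of Pik3r4 alone was not made (adjusted p = 0.0536). Pik3r4, Ambra1 and Gabarapl2 lost their call when certain single libraries were left out, and Pik3r4 and Ambra1 also in both limma fits on log2 FPKM. Depth limits Atg10, whose interval of -0.40 to 0.34 is the widest of the 35.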
